A study of Mus musculus with 6 samples.

Results

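Chromosome 1 of the mouse was divided into fixed windows of 500 kb, and the reads that carried a gene annotation were summed in each window and library. Of 3730 windows with gene reads in the genome, 279 lay on chromosome 1. The chromosome was chosen because its windows were, as a whole, lower in CD24+ than in CD24- cells. That contrast is therefore given as a description and carries no test. Inside the chromosome the lower level was not even: windows before 120 Mb had a median log2 fold change of 0.01, and windows from 120 Mb on had a median of -0.52.

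The libraries come from Mvt1, a mammary carcinoma cell line of FVB/N mice grown in DMEM with 10% fetal bovine serum. Cells were stained for CD24, a glycoprotein anchored to the cell surface, and sorted into CD24- and CD24+ cells without any further treatment. Total RNA of 3 plates of each sorted group gave the 6 libraries, which were sequenced from one end. No source describes more than 1 sort, so errors here measure how plates of a sorted group vary, and a difference tied to CD24 cannot be told apart from any other difference between the sorted cells.

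Chromosome 1 is a large chromosome on which genes of unrelated function lie side by side, among them several clusters of related genes. The selectins, which let leukocytes adhere to vessel walls, lie in such a cluster, as do the Ifi200 genes of interferon responses, the Serpinb protease inhibitors and the receptors of the interleukin 1 family. Housekeeping genes of ribosomes, mitochondria and the cell cycle are spread between these clusters, so a summed window mixes genes of many roles.

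The measured unit was a sequence of 47 nt with its count. The stretches below are coding sequence of genes that carried most of the reads of a window with a large change, or that were among the most read genes called lower from 120 Mb on. They were joined from overlapping deposited sequences that match the genome exactly, they are written 5′ to 3′ on the strand of the gene, and positions are mm9, the build named in the submitters' processing notes. Capitals mark the most-read 47-nt sequence of the stretch. The first lines are genes lower in CD24+ cells, all from 120 Mb on.
Pappa2, chr1:160775134-160775233, minus strand: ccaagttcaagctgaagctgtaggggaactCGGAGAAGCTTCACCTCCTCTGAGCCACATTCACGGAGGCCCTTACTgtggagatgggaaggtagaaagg
Lamb3, chr1:195158556-195158662, plus strand: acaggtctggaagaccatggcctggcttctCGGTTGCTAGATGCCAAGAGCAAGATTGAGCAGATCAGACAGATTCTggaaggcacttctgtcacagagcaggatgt
Mdm4, chr1:134893140-134893236, minus strand: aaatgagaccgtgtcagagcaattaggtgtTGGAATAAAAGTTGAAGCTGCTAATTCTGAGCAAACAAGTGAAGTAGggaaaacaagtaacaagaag
Bat2d (Prrc2c), chr1:164622945-164623044, minus strand: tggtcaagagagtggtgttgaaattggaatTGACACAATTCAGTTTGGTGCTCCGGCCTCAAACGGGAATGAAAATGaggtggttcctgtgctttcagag
Lamc1, chr1:155068673-155068779, minus strand: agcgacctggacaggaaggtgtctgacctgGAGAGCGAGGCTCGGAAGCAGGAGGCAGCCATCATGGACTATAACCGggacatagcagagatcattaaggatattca
Tpr, chr1:152283918-152283997, plus strand: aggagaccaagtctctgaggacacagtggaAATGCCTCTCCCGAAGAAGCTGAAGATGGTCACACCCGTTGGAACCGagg

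The next lines are genes higher in CD24+ cells. They lie before 120 Mb.
Fn1, chr1:71692177-71692276, minus strand: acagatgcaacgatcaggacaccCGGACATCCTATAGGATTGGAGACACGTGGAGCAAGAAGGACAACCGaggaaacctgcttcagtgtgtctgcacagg
Sdpr (Cavin2), chr1:51357624-51357721, plus strand: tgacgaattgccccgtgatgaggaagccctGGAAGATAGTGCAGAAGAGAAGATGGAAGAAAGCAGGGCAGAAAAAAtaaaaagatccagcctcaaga

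Single sequences held few reads, so levels were taken over whole genes and windows. The marked sequence of Tpr had 28, 20 and 17 reads in the CD24- libraries and 5, 30 and 21 in the CD24+ libraries. That of Fn1 had 7, 3 and 4 reads in CD24- and 28, 108 and 104 in CD24+ cells. These reads are not scaled to depth, which differs between the libraries.

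Mapped reads ranged from 9046025 to 25692147 per library, CD24+ replicate 1 being the shallowest, and reads in genes made up 71.8% to 74.3% of them. Levels are counts scaled to the gene reads of the library (CPM, counts-per-million of gene reads). Cd24a, the gene of the sorted marker, stood at 12.3, 11.6 and 6.98 CPM in CD24- and at 71.8, 85.3 and 72.5 CPM in CD24+ libraries. The cells are labelled epithelial, and Krt8 and Krt18, keratins of simple epithelia, were read in all libraries, but Cdh1 and Epcam, defining genes of epithelium, had 2 and 6 reads over all 6 libraries. The 9 epithelial markers summed to 1870 to 2110 CPM in CD24- and 759 to 886 CPM in CD24+ libraries, nearly all from Krt8 and Krt18. Krt8 was at 1140 to 1300 CPM in CD24- and 554 to 652 CPM in CD24+ libraries, and Krt18 at 691 to 771 and 199 to 228 CPM. The other epithelial markers did not all change in the same direction. Of 6 leukocyte markers, 4 had reads, which summed to 73.9 to 110 CPM in CD24- and 32.2 to 42.4 CPM in CD24+ libraries, nearly all from Cd68 and Cd14. Cd68 was at 43.3 to 77.0 CPM in CD24- and 6.92 to 9.24 CPM in CD24+ libraries, and Cd14 overlapped at 30.5 to 33.3 and 24.6 to 33.0 CPM, while Cd3e was at 0 and Ptprc, the defining gene, had 2 reads. The 4 endothelial markers summed to at most 4.03 CPM. The part of these differences in the results below was not tested.

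Chromosome 1 took a smaller share of gene reads in every CD24+ library. The share was 6.34%, 6.30% and 6.32% in CD24- libraries and 5.24%, 5.45% and 5.37% in CD24+ libraries, and the groups did not overlap. The means were 6.32% ± 0.018 (SD, n = 3) and 5.35% ± 0.105 (SD, n = 3), a ratio of 0.846. Since these are bulk samples, fewer cells that express a gene and less RNA per cell cannot be told apart.

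The difference lay in the distal stretch. From 120 Mb on, the share was 3.38%, 3.35% and 3.38% in CD24- and 2.27%, 2.34% and 2.33% in CD24+ libraries, means of 3.37% ± 0.0131 and 2.31% ± 0.035 (SD, n = 3) and a ratio of 0.687. Before 120 Mb it was 2.96%, 2.95% and 2.94% in CD24- and 2.97%, 3.11% and 3.03% in CD24+ libraries, so that each CD24+ library was slightly above the CD24- libraries, with a ratio of the means of 1.03. The border at 120 Mb was chosen after the values of 10-Mb segments had been seen, so the contrast between the stretches is a description too. Without the 10 genes of most reads, the ratio for the whole chromosome was 0.829.

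**Figure D1:**
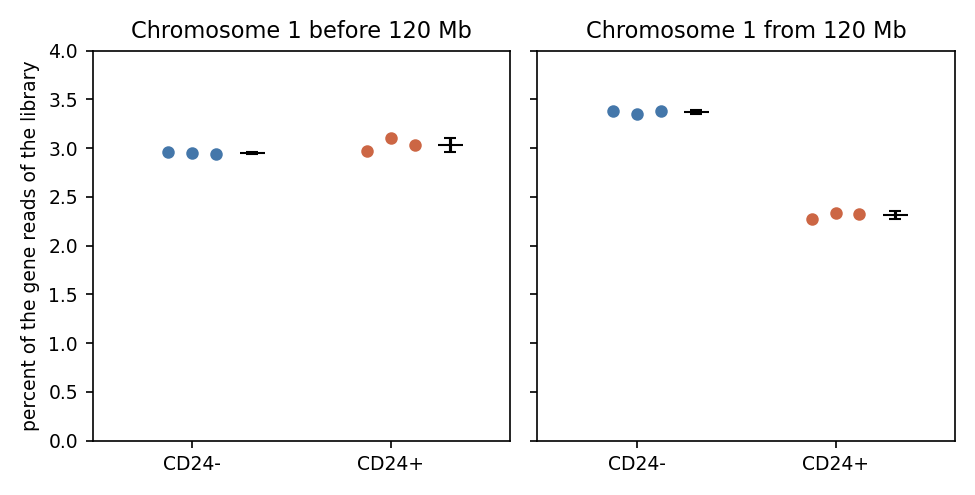
Share of the gene reads of each library (percent, vertical axis from 0) that lay on chromosome 1 before 120 Mb (left) and from 120 Mb on (right). Each coloured point is 1 library and the black bar is the mean with its SD; the groups sit at 2.95% and 3.04% on the left and at 3.37% and 2.31% on the right.

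Of the 279 windows, 233 had enough reads for the fit over all windows of the genome and 46 did not. In edgeR's quasi-likelihood test with Benjamini-Hochberg adjustment at 0.05, 115 were called lower and 48 higher in CD24+ cells, and 70 were not called. Over the whole genome 26.9% of tested windows were called lower and 28.5% higher. On chromosome 1 the libraries did not overlap in 117 windows that were lower and 56 that were higher (31.6% and 33.0% of windows of the genome). The median log2 fold change was -0.19 on the chromosome and 0.00 over all windows. Because the chromosome was picked on this contrast, these counts describe the choice. Windows called lower were also frequent on chromosomes 13 and 6, with 72 of 162 and 75 of 184 tested windows and medians of -0.14 and -0.14. Chromosome 13 also had 61 windows called higher (37.7%). Chromosome 6 had 34 called higher (18.5%), beside 20.6% on chromosome 1, and 65.8% of its windows were below 0, beside 64.4% on chromosome 1.

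Before 120 Mb, 126 windows were tested, of which 33 were called lower and 35 higher, and the quartiles of the log2 fold change were -0.20 and 0.29. With distinct sequences counted once, 18 of 123 were lower and 35 higher there, where the genome had 17.1% lower and 27.1% higher. From 120 Mb on, 107 were tested, of which 82 were lower (76.6%), 13 higher (12.1%) and 12 not called, and the quartiles were -0.76 and -0.22. The lowest distal window was at -4.42, but 78 of them lay between -1 and 0. The lower level was alike in the plates. The median distal window stood at -0.55, -0.48 and -0.51 in the CD24+ libraries against the mean of the CD24- libraries, and at 0.01, 0.01 and -0.01 in the CD24- libraries. Before 120 Mb all 6 medians lay between -0.01 and 0.02.

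**Figure D2:**
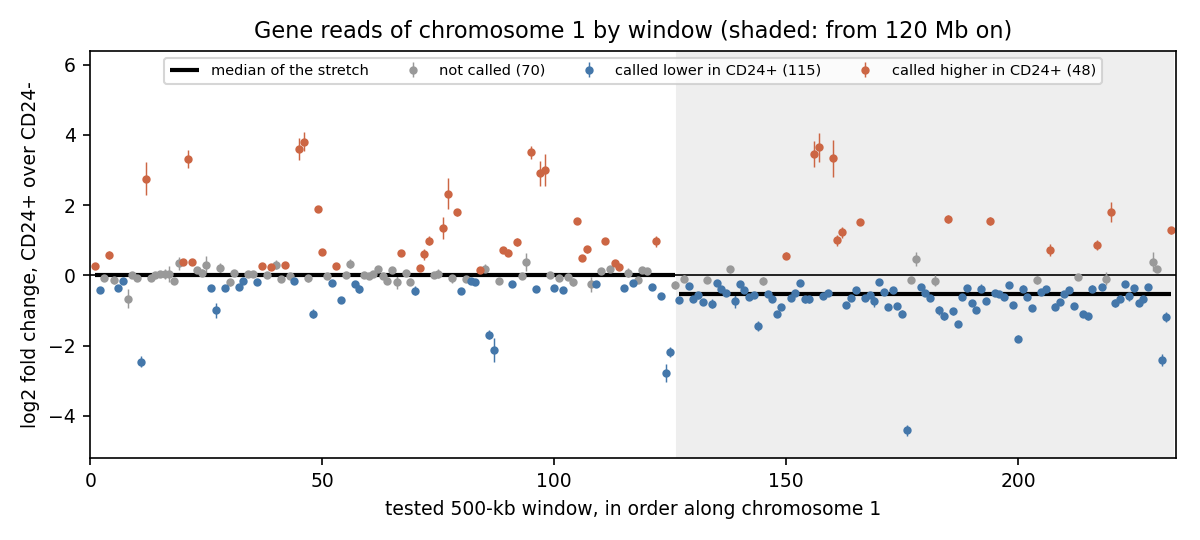
Log2 fold change of gene reads, CD24+ over CD24-, for the 233 tested windows of chromosome 1 in their order from the start of the chromosome (horizontal axis, window number), with SE bars; colours give the call, and the shaded part is from 120 Mb on. The black lines are the medians, 0.01 before 120 Mb and -0.52 from there on, where 82 of 107 windows were called lower.

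In steps of 10 Mb from the start of the chromosome, the median log2 fold change of the first 10 segments lay between -0.16 and 0.29. The segments from 100 to 110 Mb and from 110 to 120 Mb had medians of -0.22 over 8 windows and -0.27 over 1 window. The 8 segments from 120 Mb on had medians of -0.49, -0.54, -0.21, -0.61, -0.63, -0.52, -0.42 and -0.37 in order. The segment from 140 to 150 Mb was the exception among these, with 5 of its 9 windows called lower and 4 higher.

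A run of low segments of this length was found on no other chromosome. Of 258 segments of the genome with at least 5 tested windows, 16 had a median of -0.30 or lower, and 7 of these were on chromosome 1, while 23 segments had a median of 0.30 or higher. The longest run was the 5 segments from 150 to 200 Mb on chromosome 1, against runs of 2 on chromosomes 6, 13 and X and no such segment on the other chromosomes. The limit of -0.30 was set with the values known, and no test of the run was made.

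**Figure D3:**
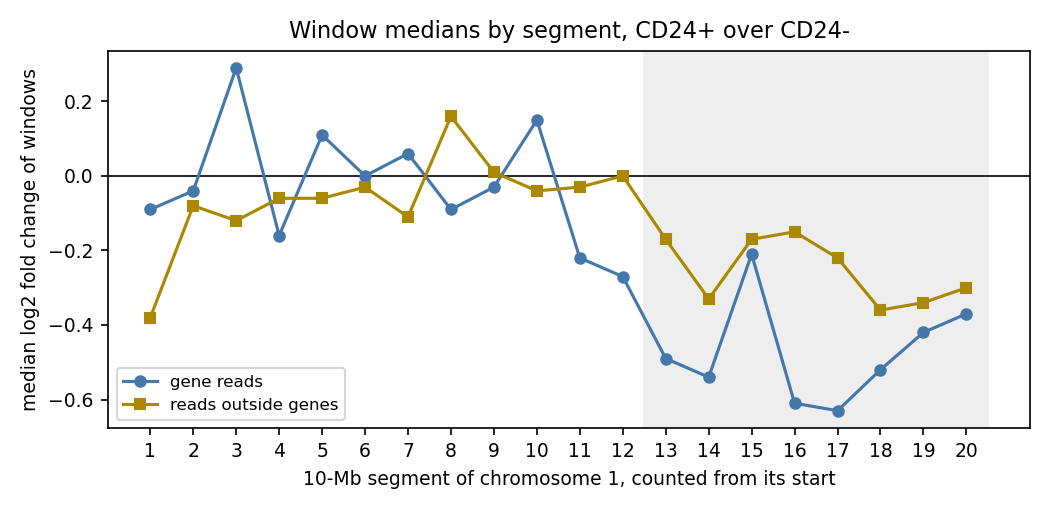
Median log2 fold change, CD24+ over CD24-, of the tested windows in each 10-Mb segment of chromosome 1 (horizontal axis, segments counted from the start), for reads in genes (circles) and reads outside genes (squares); the shaded part is from 120 Mb on. Gene reads lie between -0.63 and -0.21 in all 8 shaded segments, and reads outside genes between -0.36 and -0.15, while the lowest segment of reads outside genes is the first, at -0.38.

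Between 107 and 120 Mb the windows did not change in 1 step. The window at 107.0 Mb, led by Pign, an enzyme of GPI anchor synthesis, had a log2 fold change of 0.13 ± 0.09 (SE), and the next one, at 107.5 Mb, was lower at -0.32 ± 0.07. The window at 108.0 Mb, which held only Bcl2, the inhibitor of apoptosis, was higher in CD24+ cells with 25.7, 25.8 and 17.9 CPM against 41.9, 42.7 and 50.9 CPM. The next one, led by Vps4b and Kdsr, was lower, with 194, 182 and 187 CPM in CD24- and 116, 127 and 127 CPM in CD24+ libraries. It was followed by 2 windows of Serpinb genes, at -2.78 ± 0.26 and -2.19 ± 0.14. Gene reads were then sparse, and the only tested window between 110 and 120 Mb, led by Dsel, had -0.27 ± 0.12 (SE). The first 6 tested windows from 120 Mb on were all below 0, between -0.10 and -0.77, and 5 of them were called lower.

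Among windows whose mean reached 20 CPM and whose groups did not overlap, the 5 largest decreases were all distal, and each was led by 1 or a few genes. The window chr1:160500001-161000000 held only Pappa2, a protease that cleaves IGF binding proteins, at 86.6, 75.5 and 87.3 CPM in CD24- and 3.70, 4.90 and 2.98 CPM in CD24+ libraries (log2 fold change -4.42 ± 0.16, SE). The window chr1:195000001-195500000, of which Lamb3, the beta chain of laminin 332, made up 73.4% of reads, had 139, 153 and 214 CPM against 39.6, 28.1 and 29.4 CPM (-2.41 ± 0.18). The groups were apart in both by the rule that chose the windows, as in those of Aim2 (-1.80 ± 0.11), Mdm4 (-1.44 ± 0.15) and Slc19a2 with Selp (-1.40 ± 0.06). The last is chr1:166000001-166500000, where 568, 562 and 638 CPM in CD24- stood against 235, 217 and 219 CPM in CD24+ libraries over 6 tested genes.

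Of the 5 largest increases by the same rule, 3 were proximal, and 2 of these were led by genes of the extracellular matrix. The window chr1:45000001-45500000 holds the fibrillar collagen genes Col3a1 and Col5a2 and had 22.3, 21.5 and 9.80 CPM in CD24- and 278, 184 and 296 CPM in CD24+ libraries (3.81 ± 0.28). The window chr1:71500001-72000000, 79.6% of which was Fn1, the gene of fibronectin, had 559, 544 and 534 CPM against 1560, 2120 and 2020 CPM (1.80 ± 0.10). That of Sdpr (Cavin2), a coat protein of caveolae at chr1:51000001-51500000, had 116, 120 and 120 CPM against 471, 398 and 464 CPM (1.90 ± 0.07).

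Among the distal windows called higher, 11 were led by Csrp1, Fam5c (2 windows), Ptgs2, Rgl1, Prrx1, Ddr2, Smyd3, Mosc2, Tgfb2 and Cd34. The window of Ptgs2, which makes prostaglandins, and Pla2g4a, which frees their precursor, had 136, 117 and 195 CPM in CD24- and 365, 332 and 350 CPM in CD24+ libraries. That of Ddr2, a collagen receptor, had 76.8, 74.5 and 93.3 CPM against 245, 209 and 258 CPM. The libraries of the groups did not overlap in any of these 11 windows. Because the windows were picked by a call on the same libraries, such a gap is likely and adds nothing to the call.

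Of 887 genes with reads on the chromosome, 659 were tested, 287 were called lower and 106 higher in CD24+ cells. The background was 23.7% lower and 22.7% higher over the 11125 genes tested in the genome. The groups did not overlap in 315 genes that were lower and 129 that were higher (29.3% and 28.0% of genes of the genome). The median was -0.20 on the chromosome and -0.01 over all genes. The proximal stretch had 68 lower and 75 higher of 334 tested genes, with a median log2 fold change of 0.01. With each distinct sequence counted once, it had 36 lower and 70 higher of 326, and the genome 12.9% lower and 19.6% higher. The distal stretch had 219 lower (67.4%) and 31 higher (9.54%) of 325, with a median of -0.56 and quartiles of -0.88 and -0.19. Of the 325 distal genes, 202 lay between -1 and 0, 67 below -1 and 30 above 1. Large changes in either direction were found in both stretches.

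**Figure D4:**
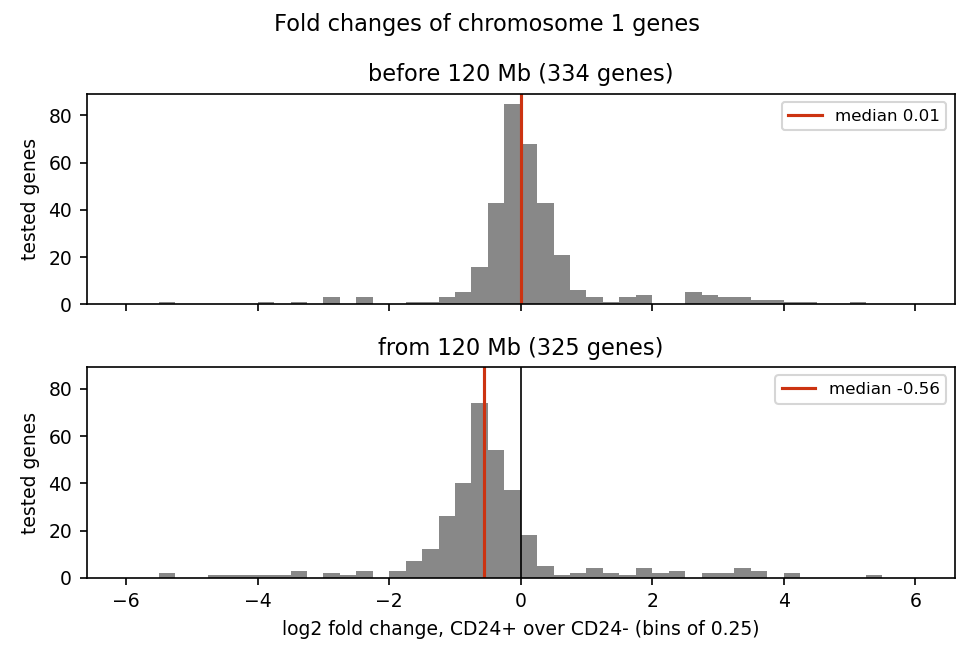
Number of tested genes of chromosome 1 (vertical axis) by log2 fold change, CD24+ over CD24- (horizontal axis, bins of 0.25), for the 334 genes before 120 Mb (top) and the 325 genes from 120 Mb on (bottom). The red line is the median, 0.01 at the top and -0.56 at the bottom, and both panels have tails on either side.

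The lower level of distal genes was found at low and high expression. Ordered by mean CPM and divided into groups of 109, 108 and 108 genes, they had medians of -0.46, -0.56 and -0.63 from the lowest to the highest level. Proximal genes ordered in the same way had medians of 0.16, 0.07 and -0.09. Genes that share a window were then set side by side. In the 62 distal windows with at least 3 tested genes, 33 had all genes below 0, 2 had none and 27 were mixed. In the 56 such proximal windows the counts were 6, 5 and 45. Of the genes in these windows, 85.6% of 292 distal and 51.9% of 270 proximal genes were below 0.

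The 20 distal genes of most reads were below 0 in 19 cases, and 16 were called lower and 1, Ptgs2, higher, with a median of -0.62. Of all distal genes, 82.8% were below 0, 67.4% lower and 9.54% higher. In the group of 108 distal genes of highest level, 99 were below 0, 88 lower and 5 higher (median -0.63). The counts of the 20 lie near those of this group. Bat2d (Prrc2c), an RNA-binding protein gene, had 1050, 1070 and 1120 CPM in CD24- and 364, 552 and 498 CPM in CD24+ libraries, a log2 fold change of -1.19 ± 0.13 (SE). Lamc1, the gamma chain shared by most laminins, had 866, 851 and 794 CPM against 510, 532 and 567 CPM (-0.64 ± 0.08). Tpr, a protein of the nuclear pore basket, had 785, 813 and 808 CPM against 365, 467 and 443 CPM (-0.91 ± 0.10). The groups did not overlap in these genes. In Hnrnpu, a nuclear matrix protein that binds RNA and the distal gene of most reads, they did, at 1130, 1180 and 1360 CPM against 852, 1160 and 987 CPM, and it was not called.

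The 20 proximal genes of most reads had 7 lower, 6 higher and a median of 0.02. Of all proximal genes, 20.4% were lower and 22.5% higher. In the group of 111 proximal genes of highest level, 33 were lower and 19 higher (median -0.09). Whether the 20 differ from that group was not tested. Ncl, nucleolin, was lower with 2240, 2200 and 2380 CPM in CD24- against 1300, 2000 and 1480 CPM in CD24+ libraries (-0.51), a call that was lost without CD24+ replicate 3 (-0.46) and with each distinct sequence counted once (-0.28). Fn1 itself was higher, with 227, 221 and 176 CPM against 1330, 1830 and 1790 CPM (2.99 ± 0.15, and 1.81 with distinct sequences). Rpl7, of the large ribosomal subunit, stood at 815, 793 and 723 CPM against 821, 753 and 735 CPM, and the groups overlapped.

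Lists of genes by role were set beside all tested genes of the same stretch, of which 67.4% were called lower and 9.54% higher in the distal stretch (median -0.56) and 20.4% lower and 22.5% higher in the proximal one (median 0.01). Of the genes listed for the cell cycle and DNA repair, 16 of 17 distal genes were called lower and all 17 were below 0, with a median of -0.65 beside -0.56 for all distal genes. Of 7 proximal ones 2 were lower, with a median of -0.16. Parp1, which marks DNA breaks with poly(ADP-ribose), had 334, 342 and 333 CPM in CD24- and 148, 190 and 164 CPM in CD24+ libraries. Mdm4, an inhibitor of p53, had 134, 128 and 107 CPM against 33.3, 49.1 and 50.9 CPM, the largest decrease of the list. Mcm6 and Mcm3, subunits of the same replicative helicase, lie on either side of the border. Mcm6, on the distal side, had 272, 276 and 246 CPM against 169, 198 and 192 CPM, and Mcm3 had 212, 198 and 226 CPM against 174, 222 and 175 CPM, with overlap.

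The other housekeeping lists were divided in the same way. For the ribosome, translation and protein folding, 5 of 8 distal genes were lower and none higher (median -0.53), against 4 of 15 proximal genes (median -0.10). These counts lie near the 67.4% and 20.4% of all genes of each stretch. Ddx18, a helicase of ribosome assembly, had 142, 141 and 156 CPM in CD24- and 77.9, 86.9 and 75.7 CPM in CD24+ libraries. The list of mitochondrial and proteasome genes also holds genes of neither class, such as Idh1, Atp1b1 and Hsd11b1, and its proteasome gene, Psmd1, is proximal. In this mixed list, 7 of 9 distal genes were lower (median -0.60), beside 67.4% of all distal genes. None of its 11 proximal genes was lower and 1, Idh1, was higher (median 0.01), beside 20.4% lower over all proximal genes. Idh1 had 0.72, and 0.34 without a call when distinct sequences were counted. Fh1, fumarase, had 155, 167 and 168 CPM against 110, 110 and 103 CPM, while Ndufs1, a proximal subunit of complex I, had a log2 fold change of -0.01.

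Transcription factors were near the shares of all genes of the distal stretch (67.4% lower, 9.54% higher). Of 11 distal ones, 7 were lower and 1 was higher (median -0.51), and of 7 proximal ones 2 were lower and 2 higher (median 0.06). Atf3, a stress-response factor, had 55.7, 66.5 and 38.5 CPM in CD24- and 9.86, 8.72 and 11.9 CPM in CD24+ libraries (-2.39 ± 0.20). Prrx1, a homeobox factor of mesenchyme, went the other way, with 4.69, 4.70 and 4.73 CPM against 83.2, 76.3 and 106 CPM (4.23 ± 0.16).

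For the genes listed as receptors and ligands, the balance of the distal ones depends on which genes were listed. The list is not complete, as it leaves out Il24, Selp, Tnfsf4 and Fcgr4, which are distal and were called lower. Its counts and median hold for the listed genes and not for receptors and ligands as a class. Of its 7 tested distal members, 5 were called higher and 2 lower, with a median of 1.87, beside 9.54% higher and 67.4% lower over all distal genes. Cd34, a surface sialomucin, had 28.2, 25.6 and 34.8 CPM in CD24- and 327, 319 and 248 CPM in CD24+ libraries (3.34 ± 0.14, and 2.46 with distinct sequences). Ptgs2 is counted in this list as well, among those called higher, though it is an enzyme and neither a receptor nor a ligand. The other distal members called higher were Ddr2 (1.91 ± 0.12), Inhbb, a subunit of activin B (1.92 ± 0.30), and Tgfb2 (1.87 ± 0.26). Plxna2, a semaphorin receptor, was lower with 93.4, 98.9 and 78.7 CPM against 37.9, 45.4 and 37.3 CPM. Of 7 proximal ones, 2 were lower and 3 higher, with a median of -0.02. Epha4, an ephrin receptor, had 25.5, 22.8 and 26.7 CPM against 7.24, 7.49 and 7.49 CPM, and Cd28, a costimulatory receptor of T cells, had 14.5, 12.3 and 5.29 CPM against 2.62, 1.74 and 2.36 CPM. Fzd7, a Wnt receptor, had 2.03, 2.68 and 1.69 CPM against 19.6, 17.4 and 20.6 CPM.

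Matrix genes were split. The 3 tested proximal ones, Col3a1, Col5a2 and Fn1, were all higher, beside 22.5% of all proximal genes, and they lie in windows already named for their increases. Of 6 distal ones 2 were lower, 2 higher and 2 not called, beside 67.4% lower and 9.54% higher over all distal genes. Col5a2 had 7.89, 7.09 and 6.64 CPM in CD24- and 126, 99.9 and 127 CPM in CD24+ libraries (4.02 ± 0.13). Col3a1 had 14.4, 14.9 and 3.49 CPM against 158, 89.7 and 176 CPM (3.67 ± 0.39), CD24- replicate 3 being low. Lamb3 had 113, 122 and 183 CPM against 17.9, 11.1 and 11.2 CPM (-3.45 ± 0.22), and Prelp, a leucine-rich proteoglycan, had 2 reads in the CD24- libraries together and stood at 2.93, 1.58 and 4.82 CPM in CD24+ libraries.

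In the gene clusters, members next to each other differed in size of change. In the selectin cluster, 4 of 5 tested genes were lower, where 67.4% of all distal genes were. Selp, P-selectin, had 146, 138 and 188 CPM in CD24- and 3.39, 3.38 and 4.76 CPM in CD24+ libraries (-5.31 ± 0.18, and -4.59 with distinct sequences), while Blzf1, a Golgi protein in the same cluster, had 71.9, 68.7 and 68.9 CPM against 36.5, 31.4 and 35.4 CPM. Atp1b1, a subunit of the sodium pump, overlapped at 21.8, 23.2 and 29.8 CPM against 39.1, 20.9 and 29.7 CPM.

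The cluster of Il10 held Il24, a cytokine of the interleukin 10 family, at 7.89, 8.34 and 42.9 CPM in CD24- and 0.462, 0.619 and 0.262 CPM in CD24+ libraries. Its log2 fold change was -5.44 ± 0.84 (SE) and -4.18 without CD24- replicate 3, the high library. Il10 itself had 14.9, 11.9 and 15.3 CPM against 11.7, 13.5 and 12.5 CPM. Over the cluster 3 of 7 tested genes were lower, beside 67.4% of all distal genes, and the others were not called.

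Among the Ifi200 and Fc receptor genes, 3 of 6 were lower (67.4% of all distal genes) and all 6 were below 0, with a median of -1.12. Aim2, a sensor of cytosolic DNA, had 37.4, 33.7 and 35.8 CPM in CD24- and 11.1, 9.91 and 9.89 CPM in CD24+ libraries (-1.81, and -1.18 with distinct sequences). Ifi203 had 45.2, 43.7 and 37.8 CPM against 8.93, 12.2 and 15.6 CPM. Ifi202b had 106, 102 and 106 CPM against 127, 86.7 and 80.9 CPM, which overlap. These genes resemble each other in sequence, and reads that match several of them could have been placed on any.

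Before 120 Mb, the Serpinb clade and the genes around Bcl2 were the low cluster, with 6 of 7 tested genes lower, where 20.4% of all proximal genes were. Serpinb8 had 30.6, 27.5 and 37.8 CPM in CD24- and 6.01, 7.37 and 6.13 CPM in CD24+ libraries, and Serpinb2 had 2.56, 2.21 and 9.57 CPM against 0.462, 0.225 and 0.366 CPM (-3.81, and -2.84 without CD24- replicate 3). Bcl2, in their midst, was the only one higher. In the interleukin 1 receptor cluster, 2 of 5 tested genes were higher and 1 lower, beside 22.5% and 20.4% of all proximal genes. None of these called genes is a receptor of the family, the higher ones being Slc9a2 (2.68) and Map4k4 (0.27). Mfsd9 was called lower (-0.78), but its groups overlapped and the call was lost under TMM (-0.76), DESeq2 (-0.76) and the replicate block (-0.72) among others. The tested receptor genes, Il1r1 (0.20) and Il18rap (0.23), were not called. Of the regulators of G protein signalling, Rgs2 and Rgs20 were tested. Rgs2 was higher, with 5.44, 6.71 and 7.54 CPM against 32.7, 32.9 and 39.8 CPM, and Rgs20 was not called.

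Ranked by size alone, over genes whose mean log2 CPM reached 3 and whose groups did not overlap, the other large decreases were Tnfsf4 and Adcy10 in the distal and Eya1 in the proximal stretch. Tnfsf4, the ligand OX40L, had 21.3, 20.7 and 15.9 CPM in CD24- and 0.770, 1.41 and 0.838 CPM in CD24+ libraries (-4.18 ± 0.24). Eya1, a transcriptional coactivator, had 24.1, 25.3 and 28.7 CPM against 3.85, 4.67 and 5.24 CPM (-2.46 ± 0.15). The other genes with the largest increases were 5033414K04Rik (Pid1), Obsl1, C130074G19Rik and Pla2g4a, at 3.36 to 4.42. Of the 8 largest decreases 7 were distal, and of the 8 largest increases 4 were.

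**Figure D5:**
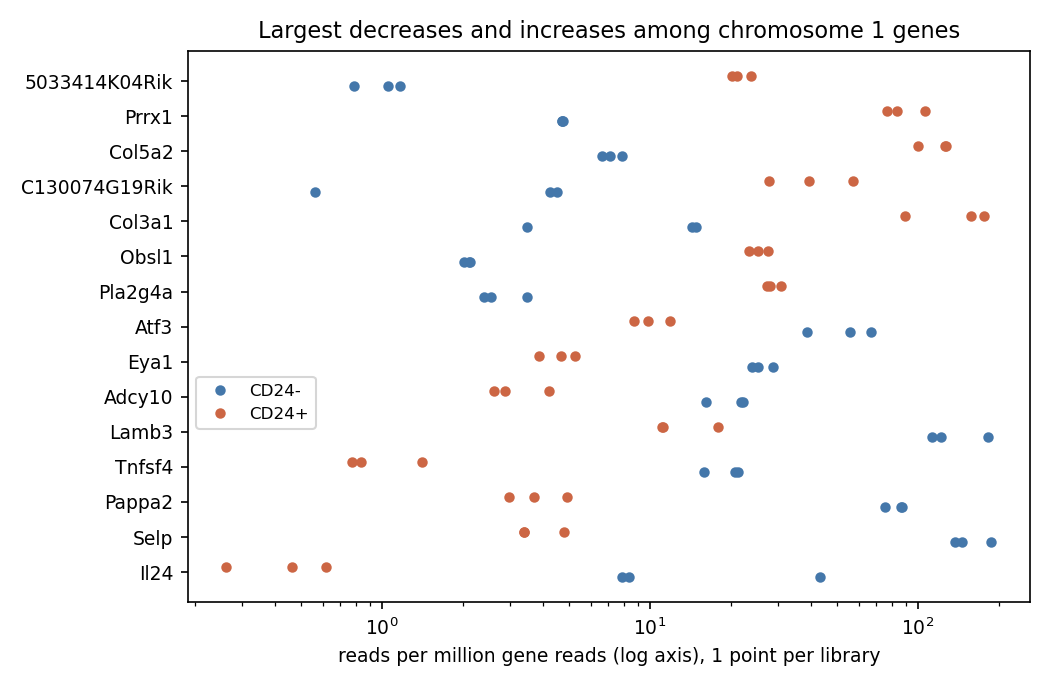
Level in CPM (log axis) of the 8 chromosome 1 genes with the largest decreases (bottom) and 7 of those with the largest increases (top) in each of the 3 CD24- (blue) and 3 CD24+ (orange) libraries, 1 point per library. The groups are apart in every gene by the rule that chose them, and CD24- replicate 3 is the low point of Col3a1 (3.49) and C130074G19Rik (0.563) and the high point of Il24 (42.9).

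Reads outside genes, with no annotation or in repeats, were not used to choose the chromosome but come from the same libraries, so they too are given without a test. Their windows had a lower median from 120 Mb on as well, by less. Of 363 tested windows of chromosome 1, 84 were called lower and 31 higher, where 18.9% of such windows in the genome were lower and 12.7% higher. The groups did not overlap in 125 windows that were lower and 49 that were higher (28.0% and 18.1% in the genome). The distal 148 windows had 54 lower, 10 higher and a median of -0.23, and the proximal 215 had 30 lower, 21 higher and a median of -0.06, the same as over all windows (-0.06). The lowest segment of these reads was proximal, the first 10 Mb, with a median of -0.38 and 12 of 13 windows below 0. With reads of no annotation alone, the medians were -0.14 and 0.08, with 42 distal windows lower and 9 higher and 18 proximal ones lower and 28 higher, where the genome had 15% lower, 18.5% higher and a median of 0.04. Scaled by TMM, the distal median was -0.16 with 46 lower and 13 higher, and the proximal balance turned to 24 lower and 30 higher, where 16.4% of windows in the genome were lower and 15.9% higher. With each distinct sequence counted once, 51 of 356 windows of the chromosome were lower and 20 higher, and 35 distal ones were lower and 5 higher. The genome then had more windows higher (9.94%) than lower (7.67%).

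The 2 classes of reads outside genes differed. Distal reads with no annotation summed to 10400, 10300 and 9930 CPM in CD24- and 9420, 8990 and 9170 in CD24+ libraries, a ratio of 0.903. Distal repeats summed to 6960, 6550 and 7000 against 6590, 7650 and 6400, with overlap. In the proximal stretch, CD24+ replicate 1 stood apart with 51800 CPM of reads with no annotation, the other 5 libraries having 29100 to 33000. Over 231 windows tested for both, the log2 fold changes of gene reads and of reads outside genes had a Pearson correlation of 0.31 and a Spearman correlation of 0.448, and over 173 pairs of neighbouring windows those of gene reads had 0.211 and 0.257. Windows share libraries and depth, so these are descriptions.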

How the data were processed

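Reads cut to 47 nt by the authors were collapsed to distinct sequences and placed on the genome by exact match. Each sequence has 1 position, 1 annotation and a deposited count per library, which is not normalized. The build is mm9 (submitters' processing notes), and the sources used here name neither mapping tool nor annotation. Exact matching loses reads over exon junctions and variants. The kit keeps no strand, so overlapping and antisense genes cannot be told apart. Deposited positions count from 0 (13698 of 13698 mitochondrial sequences checked) and are given here from 1.

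Gene reads were summed in windows of 500 kb and per annotation, and tested with edgeR 4.0.16 in R 4.3.3 (filterByExpr, quasi-likelihood F test, Benjamini-Hochberg adjustment at 0.05 over the genome) with the gene reads of a library as its size. SE is the absolute log2 fold change divided by the square root of the F statistic of its test. It is thus derived from the test and not estimated by the fit. Reads of repeats and of no annotation were tested separately. On simulated data with 200 windows changed 4-fold, 100% were recovered among 3195. The changed windows were not low in reads, and the simulated spread between libraries was fixed. Smaller changes, such as most of those in the distal stretch, were not simulated, so their recovery is not known.

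A gene that the rules name, with its windows, and a marker gene are not reported here. Named windows are the 5 largest changes each way with a mean of at least 20 CPM and no overlap between groups. Named genes are the 8 largest each way whose mean log2 CPM reached 3 and whose groups did not overlap, the 8 of most reads, and the extreme and up to 4 other members of each list. The 20 most read genes of each stretch and some further list members were added after their values were seen. Chromosome, lists and rules were chosen with earlier results of these data known. Of 887 gene names 872 matched a current symbol or synonym. Coding sequence was checked against GENCODE M21 transcripts. Libraries of a group differed by more than sampling noise. The chi-square per degree of freedom was 1.75 between CD24- replicates 1 and 2 and 9.87 to 16.1 for every other pair within a group. Alternatives were TMM, DESeq2 1.42.0, other filters and windows, distinct sequences, a replicate block and leaving out each library.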

Additional observations from a re-analysis of the deposited data

How the results depend on the processing

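The direction of the distal stretch held under each alternative run, while sizes moved, and the causes were not tested unless the alternative's construction shows them. Counting each distinct sequence once gave a share of -0.15 (log2 ratio) for chromosome 1 against -0.24, window and gene medians of -0.14 and -0.14 against -0.19 and -0.20, a distal window median of -0.37 against -0.52, a proximal one of 0.05 against 0.01, 18 proximal windows called lower against 33, and 51 windows of reads outside genes called lower against 84 (14.3% against 23.1% of those tested). Over the genome the lower share fell as well, from 26.9% to 17.1% of windows and from 18.9% to 7.67% of windows outside genes. Leaving the gene of most reads out of each window left 162 tested windows in place of 233, with 75 called lower against 115 (46.3% against 49.4%), 17 of 81 proximal, and medians of -0.59 distally and 0.08 proximally. With no filter on low counts the window median was -0.16 and the distal one -0.49. Windows of 1000 kb are fewer, with 30 called higher against 48 (20.7% against 20.6% of those tested) and a median of -0.25. Windows of 250 kb are more, with 126 distal ones called lower against 82 (72.0% against 76.6% of those tested) and a proximal median of 0.04. With edges moved by 250 kb the median was -0.22. TMM gave a gene median of -0.18, and for reads outside genes 70 windows lower and 43 higher against 84 and 31. Without the 10 genes of most reads the share was -0.27.

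Leaving out 1 library at a time gave 99 to 114 windows lower and 45 to 54 higher, 243 to 288 genes lower and 91 to 118 higher, 60 to 82 windows of reads outside genes lower, 75 to 81 distal and 24 to 37 proximal windows lower, medians of -0.21 to -0.16 over windows, -0.21 to -0.20 over genes, -0.54 to -0.49 distally and -0.02 to 0.02 proximally, and a share of -0.25 to -0.22. The sources do not state that same-numbered libraries pair. Such libraries had correlations of deviations of 0.0151, -0.283 and -0.328. Deviations from a mean of 3 libraries are tied to each other, so these values cannot decide whether the libraries pair. With the replicate block, 112 windows were lower and 47 higher, 267 genes lower and 97 higher, and 73 windows of reads outside genes lower. Rpl7 (-0.01) turned to 0.01 under TMM and lay between -0.06 and 0.02 when a library was left out, Ifi202b (-0.11) between -0.32 and 0.01, the last without CD24+ replicate 3, and Rpl31 turned to -0.11 with distinct sequences. Over named genes and alternatives, 470 values kept direction and call, 24 lost the call and 15 gained it. The call changed under at least 1 alternative for Ncl, Ptma, Hnrnpu, Hspd1, Hdlbp, Rassf5, Ifi202b, Mfsd9, Orc2l, Hsd11b1 and Idh1. Low genes and single sequences are limited by depth, least in CD24+ replicates 2 and 3.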
